A study of Homo sapiens with 8 samples.

Results

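The 37 genes described here encode subunits of the Polycomb repressive complexes PRC1 and PRC2, their accessory factors, and the deubiquitinase PR-DUB that removes the PRC1 mark. They were taken from a list of symbols that was chosen with earlier results of these data known. All 37 were found among the 63677 genes of the deposited count tables, through the gene names that the authors' comparison tables carry. DND-41 and MOLT-4, which are both human lines of T-cell acute lymphoblastic leukaemia, known as T-ALL, received ACBI-1 at 100 nM or the solvent DMSO, and their total RNA was sequenced 3 h later. ACBI-1 is a bifunctional small molecule that recruits the VHL ubiquitin ligase to the SWI/SNF proteins SMARCA2, SMARCA4 and PBRM1, so that they are degraded. Each of the 4 groups, DND-41 with ACBI-1, DND-41 with DMSO, MOLT-4 with ACBI-1 and MOLT-4 with DMSO, held 2 libraries. Neither line carries a genetic change made for the study according to the labels, and each is a single line, so a difference between DND-41 and MOLT-4 cannot be told apart from a difference between their cultures.

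PRC2 methylates histone H3 through its catalytic subunits EZH1 and EZH2, and PRC1 ubiquitinates histone H2A through RING1 and RNF2. Canonical PRC1 finds chromatin through CBX proteins that read the PRC2 mark, whereas variant PRC1 contains RYBP or YAF2 and is brought to CpG islands by subunits such as KDM2B. Polycomb and SWI/SNF oppose each other in fly genetics, and inactivating mutations of EZH2, SUZ12 and EED recur in human T-ALL.

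Total counts lay between 19867779 and 20082524 per library, and raw counts are given below without scaling. The scaling factors over all 8 libraries lay between 0.975 and 1.036. Statements that groups overlap or not are about raw counts, and where counts are close they can depend on the scaling. Transcripts of SMARCA2, SMARCA4 and PBRM1 were not called in either line, and protein was not measured. Of 12 T-lineage markers, 10 had at least 100 counts in every DND-41 library and 12 in every MOLT-4 library, while the 5 myeloid markers together had at most 12 counts in any library and the 3 erythroid markers 0. Of 5 B-lineage markers, CD79A alone had at least 100 counts in every library, with between 31024 and 35375 in DND-41 and between 176 and 314 in MOLT-4. Of 3 fibroblast markers, PDGFRB had between 676 and 1160 counts in DND-41 and between 17 and 32 in MOLT-4. Their part in the results was not tested. The DND-41 ACBI-1 replicates differed by a chi-square of 15.6 per gene, against between 2.99 and 5.10 in the other groups, and mitochondrial genes took 17.4% and 13.3% of their counts, against 15.2% and 15.1% in the DMSO libraries. DND-41 DMSO replicate 2 held MOLT-4 transcripts, at a median of 0.622% of the MOLT-4 level over 45 genes. These genes were picked as expressed in MOLT-4 and near absent from the other DND-41 libraries. Their median of 0 in those libraries was therefore set by the choice, which left DND-41 DMSO replicate 2 out. Counts of members called without each library are given with each comparison.

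After 3 h of ACBI-1 the Polycomb genes moved more often down than up in both lines, and the largest falls were those of BCOR in MOLT-4 and BCORL1 in DND-41, the corepressor subunits of the variant PRC1 built on PCGF1. In DND-41, 11 of 37 members passed the test, which is 29.7% of them, against 9.83% of all 14019 genes tested. Of these, 2 rose, against 3.78% of all genes, and 9 fell, against 6.05%. In MOLT-4, 8 of 37 passed, which is 21.6%, against 10.8% of 14470 genes. Of these 8 members, 2 rose (3.9% of all genes) and 6 fell (6.94%). The choice of the list with earlier results known makes these shares descriptions. Neither these shares nor those given below were matched for expression level. Every member had at least 147 counts in every library, whereas the genes tested included some with fewer, for which changes are harder to call. The test was edgeR's quasi-likelihood F-test, adjusted over all genes by the Benjamini-Hochberg method at 5%, and all 37 members passed its filter on low counts in both lines. The median log2 fold change of the members was -0.06 in DND-41 and -0.09 in MOLT-4, against 0.003 and -0.001 over all genes tested.

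The split depended on the scaling. With library totals in place of trimmed mean of M-values (TMM) scaling, 3 members rose and 7 fell in DND-41, and 2 rose and 3 fell in MOLT-4. After a correction for transcript GC content, added once the data had been seen, 5 rose and 8 fell in DND-41, and 2 rose and 7 fell in MOLT-4. Across 36 members with a GC value, Spearman's rho between GC content and log2 fold change was -0.41 in DND-41 and 0.13 in MOLT-4, against -0.125 and -0.004 across all genes, where the points share the same libraries and genes are not independent replicates.

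The same 5 members fell in both lines: BCOR, BCORL1, KDM2B, PCGF2 and CBX2. They were 55.6% of the 9 that fell in DND-41 and 83.3% of the 6 that fell in MOLT-4. Among all 12968 genes tested in both lines, 431 fell in both, which is 53.9% of the 799 that fell in DND-41 and 48.6% of the 887 that fell in MOLT-4, so the share in DND-41 was near that of all genes. By DESeq2 and with library totals, BCOR, BCORL1 and CBX2 fell in both lines, while KDM2B was not called in MOLT-4 (adjusted p = 0.0811 and 0.0819) and PCGF2 in neither line (between 0.0529 and 0.339). In the main edgeR fit 0 members rose in both lines, since LCOR and MTF2 rose in DND-41, and EZH1 and PCGF1 in MOLT-4. In that fit MTF2 was called in opposite directions, and 24 members were called in neither line. With GC correction, edgeR called PCGF1 higher in both lines, at 0.33 in DND-41 (adjusted p = 0.0196) and 0.39 in MOLT-4 (adjusted p = 0.0039).

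**Figure D1:**
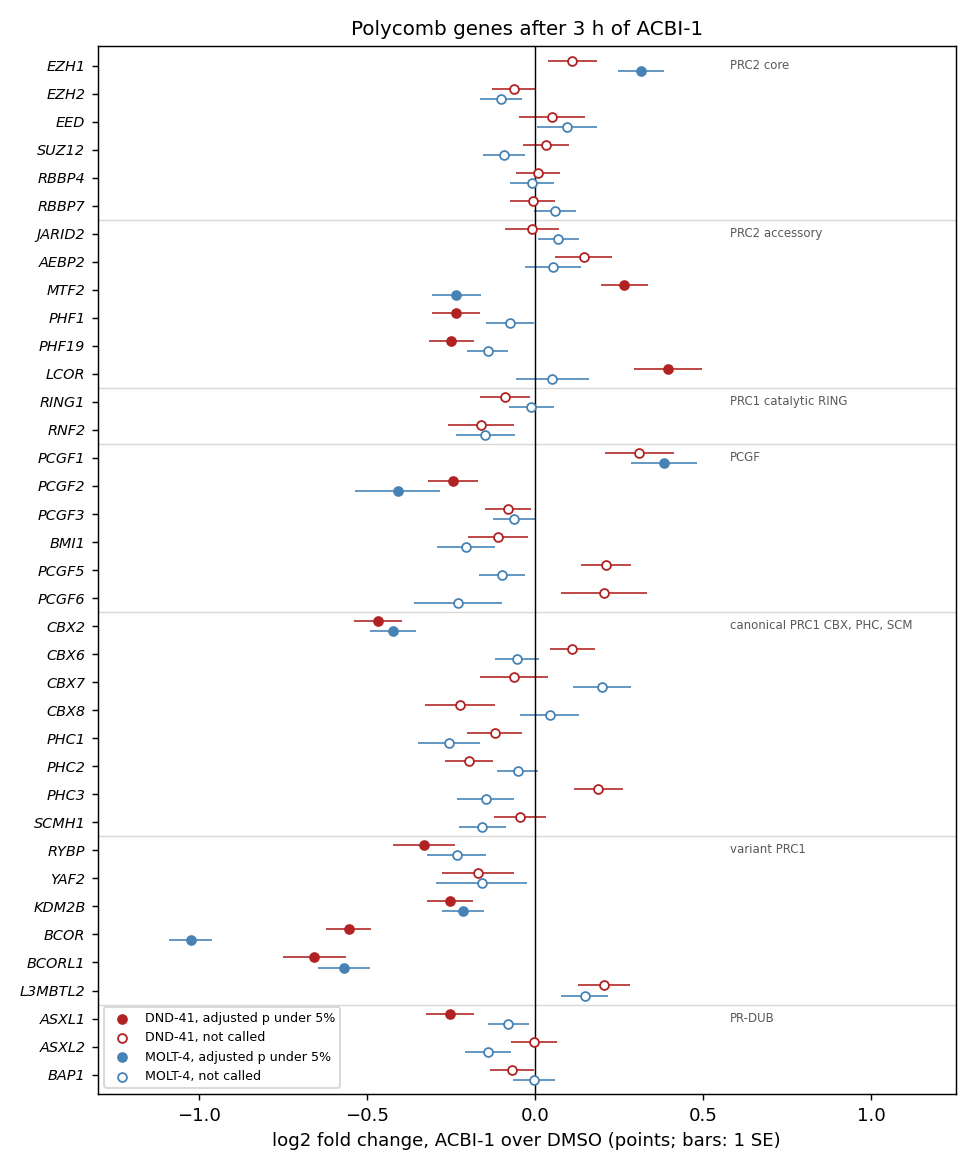
Log2 fold change of ACBI-1 over DMSO for each of the 37 genes, grouped by role, in DND-41 (red) and MOLT-4 (blue); points are edgeR estimates, bars 1 SE, and filled points have an adjusted p under 5%. BCOR lies furthest to the left in MOLT-4, at -1.03, and BCORL1 in DND-41, at -0.66, and MTF2 has filled points on either side of 0.

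BCOR is a corepressor that bridges PCGF1 to transcription factors and is recurrently mutated in leukaemia, and BCORL1 is its close homologue. BCOR had 2436 and 2630 counts in the DND-41 ACBI-1 libraries, against 3777 and 3612 in the DMSO libraries. In MOLT-4 it had 1586 and 1594 counts with ACBI-1, against 3217 and 3127 with DMSO. The ACBI-1 libraries lay below the DMSO libraries in both lines, without overlap. The log2 fold change was -0.55 ± 0.07 in DND-41 (SE; adjusted p = 3.64e-07) and -1.03 ± 0.06 in MOLT-4 (adjusted p = 1.39e-11), so BCOR transcript in MOLT-4 was 2.04-fold lower with ACBI-1.

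BCORL1 had 343 and 364 counts with ACBI-1 in DND-41, against 549 and 559 with DMSO. Its MOLT-4 counts were 686 and 611 with ACBI-1, against 936 and 949 with DMSO. It was lower in every ACBI-1 library than in any DMSO library of the same line. The log2 fold changes were -0.66 ± 0.09 in DND-41 (adjusted p = 6.6e-06) and -0.57 ± 0.08 in MOLT-4 (adjusted p = 8.73e-06).

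The promoters of these corepressor genes are shown because the pair fell together in both lines, and that of MTF2 because its response differed between the lines. Each run holds the 250 bases before the annotated start, 5′ to 3′ on the strand of the gene, from RefSeq on GRCh38.p14, with capitals for GGGCGG, the core of the GC box bound by SP and KLF factors, on either strand. The BCOR window is chrX:40146634-40146883 on the minus strand, the BCORL1 window chrX:129980729-129980978 on the plus strand, and the MTF2 window chr1:93079033-93079282 on the plus strand.
BCOR: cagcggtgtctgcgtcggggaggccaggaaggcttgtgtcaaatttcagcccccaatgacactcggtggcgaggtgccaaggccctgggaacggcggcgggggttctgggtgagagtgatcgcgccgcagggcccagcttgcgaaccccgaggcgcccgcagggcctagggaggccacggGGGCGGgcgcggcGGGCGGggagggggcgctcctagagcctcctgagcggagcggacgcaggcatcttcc
BCORL1: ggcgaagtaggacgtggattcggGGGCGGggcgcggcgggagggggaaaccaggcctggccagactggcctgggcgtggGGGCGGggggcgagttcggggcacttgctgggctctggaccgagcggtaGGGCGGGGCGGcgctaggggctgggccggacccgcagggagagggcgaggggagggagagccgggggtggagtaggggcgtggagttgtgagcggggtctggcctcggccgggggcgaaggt
MTF2: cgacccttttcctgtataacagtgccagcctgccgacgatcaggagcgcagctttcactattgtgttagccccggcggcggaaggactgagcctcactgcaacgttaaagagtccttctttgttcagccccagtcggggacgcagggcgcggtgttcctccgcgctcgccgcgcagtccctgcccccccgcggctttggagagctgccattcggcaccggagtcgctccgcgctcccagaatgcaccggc
The BCOR window held 2 matches, the BCORL1 window 4, of which a pair overlaps, and the MTF2 window 0. GGGCGG was found in 25 of the 34 member promoters matched by symbol (73.5%), against 41.6% of 27305 promoters of the same length. Other motifs searched on both strands were CCGGAA, the ETS core, in 4 of the 34 against 14.8% of all promoters, TGTGGT, the RUNX core, in 3 against 11.05%, and TGGGAA, the RBPJ core, in 6 against 21.2%. A match describes these letters only, and the promoters compared were not matched to those of the members for GC content or expression level.

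The other variant PRC1 genes moved less. KDM2B, which binds unmethylated CpG islands and recruits the PCGF1 complex, had 2108 and 2365 counts with ACBI-1 in DND-41, against 2591 and 2709 with DMSO, and in MOLT-4 2673 and 2536 with ACBI-1, against 3036 and 2886 with DMSO. The groups did not overlap in either line. KDM2B fell by 0.25 ± 0.07 on the log2 scale in DND-41 (adjusted p = 0.013) and by 0.21 ± 0.06 in MOLT-4 (adjusted p = 0.0236). RYBP, which stimulates the ligase of variant PRC1, had 420 and 413 counts with ACBI-1 in DND-41, against 522 and 520 with DMSO, and in MOLT-4 576 and 634 with ACBI-1, against 640 and 755 with DMSO. It was lower with ACBI-1 in every library of both lines, and was called in DND-41 (log2 fold change -0.33 ± 0.09, adjusted p = 0.0161) but not in MOLT-4 (-0.23 ± 0.09, adjusted p = 0.0978). Its paralogue YAF2 had 307 and 288 counts with ACBI-1 in DND-41, against 349 and 316 with DMSO, and in MOLT-4 150 and 147 with ACBI-1, against 158 and 167 with DMSO, and was not called in either line. L3MBTL2, of the variant PRC1 built on PCGF6, had 960 and 921 counts with ACBI-1 in DND-41, against 819 and 804 with DMSO, and in MOLT-4 1370 and 1249 with ACBI-1, against 1196 and 1122 with DMSO. All ACBI-1 libraries lay above the DMSO libraries for this gene, with log2 fold changes of 0.20 ± 0.08 in DND-41 and 0.15 ± 0.07 in MOLT-4 that did not pass (adjusted p = 0.0996 and 0.211). Of the 6 variant PRC1 genes, 4 fell in DND-41, against 6.05% of all genes, and 3 in MOLT-4, against 6.94%. None rose in the main edgeR fit, but with GC correction edgeR called L3MBTL2 higher in DND-41 (0.23, adjusted p = 0.0379). By DESeq2, 3 of the 6 were called in DND-41 and 2 in MOLT-4.

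**Figure D2:**
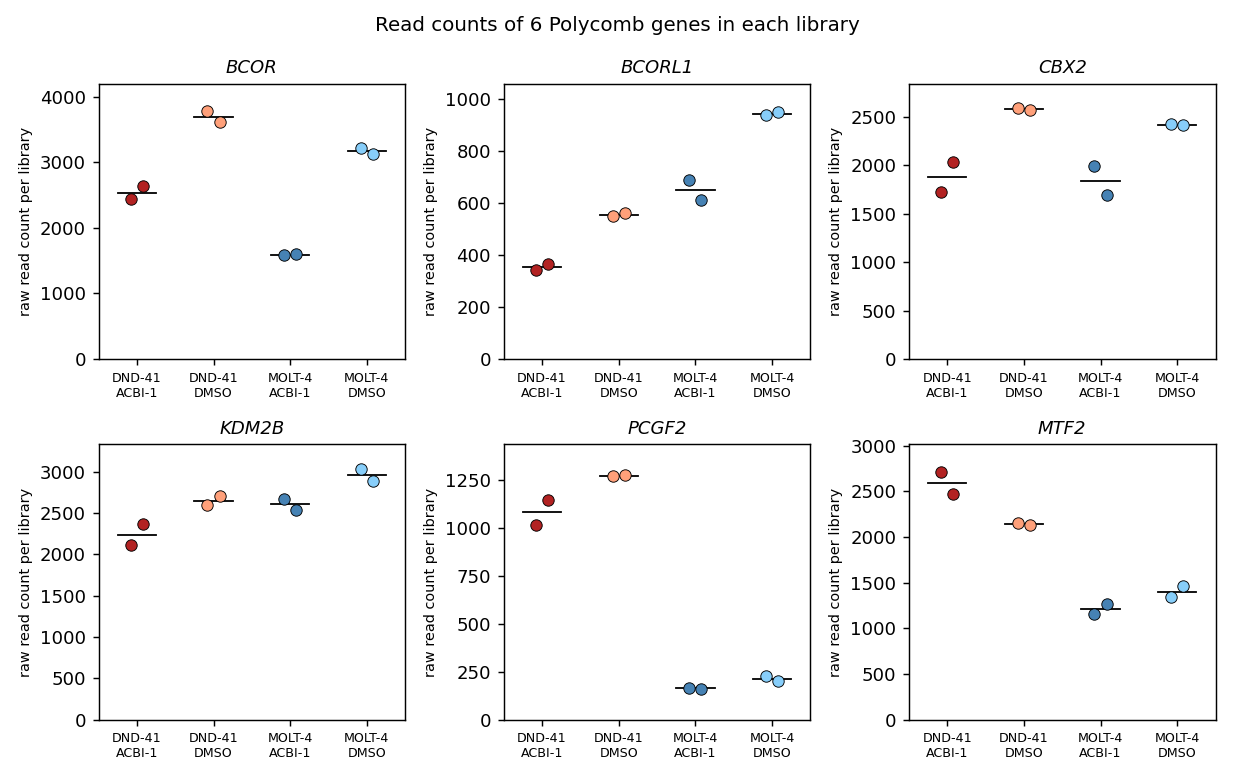
Raw read counts per library for the 5 genes that fell in both lines and for MTF2, with ACBI-1 left of DMSO in each line; points are single libraries and lines the mean of 2. For BCOR the ACBI-1 libraries, between 1586 and 2630 counts, lie below all DMSO libraries, between 3127 and 3777, and the MTF2 points are higher with ACBI-1 in DND-41 and lower in MOLT-4.

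The PCGF proteins pair with RING1 or RNF2 and decide which PRC1 forms. PCGF1, the partner of BCOR and KDM2B, had 360 and 375 counts with ACBI-1 in DND-41, against 291 and 298 with DMSO, and in MOLT-4 472 and 431 with ACBI-1, against 360 and 319 with DMSO. The ACBI-1 libraries were above the DMSO libraries in both lines. PCGF1 rose in MOLT-4 (log2 fold change 0.38 ± 0.10, adjusted p = 0.01) and missed the threshold in DND-41 (0.31 ± 0.10, adjusted p = 0.0518). PCGF2, a partner in canonical PRC1, had 1016 and 1143 counts with ACBI-1 in DND-41, against 1268 and 1272 with DMSO, and in MOLT-4 166 and 162 with ACBI-1, against 226 and 201 with DMSO. It fell without overlap in both lines, by 0.24 ± 0.07 in DND-41 (adjusted p = 0.0322) and by 0.41 ± 0.13 in MOLT-4 (adjusted p = 0.0358). Its exons overlap those of CISD3 on the opposite strand over 32.7% of their length, and no source used here gives the strand setting of the counting, so reads of PCGF2 and CISD3 could not be told apart. BMI1, its paralogue, had 779 and 650 counts with ACBI-1 in DND-41, against 792 and 743 with DMSO, and in MOLT-4 894 and 1001 with ACBI-1, against 954 and 1189 with DMSO. The groups overlapped in both lines and BMI1 was not called. Its count is uncertain, because 23.3% of its exon length belongs also to the read-through entry COMMD3-BMI1, which had 0 counts in every library.

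PCGF3 and PCGF5 form a related pair of variant complexes. PCGF5 had 8807 and 7778 counts with ACBI-1 in DND-41, against 7317 and 6936 with DMSO, and in MOLT-4 1424 and 1495 with ACBI-1, against 1471 and 1594 with DMSO. It was higher with ACBI-1 in both DND-41 libraries but did not pass the test there (0.21 ± 0.08, adjusted p = 0.0734), and in MOLT-4 the groups overlapped. PCGF3 had 1799 and 1743 counts with ACBI-1 in DND-41, against 1816 and 1907 with DMSO, and in MOLT-4 2343 and 2290 with ACBI-1, against 2401 and 2342 with DMSO. PCGF6, the partner of L3MBTL2, had 208 and 222 counts with ACBI-1 in DND-41, against 197 and 174 with DMSO, and in MOLT-4 214 and 189 with ACBI-1, against 262 and 201 with DMSO. Neither PCGF3 nor PCGF6 was called in either line.

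Of the 8 CBX, PHC and SCM genes of canonical PRC1 only CBX2 was called, and in both lines. That is 12.5% of them, against 9.83% of all genes in DND-41 and 10.8% in MOLT-4. CBX2 is a reader of the PRC2 mark that also compacts nucleosomes. It had 1722 and 2039 counts with ACBI-1 in DND-41, against 2589 and 2576 with DMSO, and in MOLT-4 1991 and 1696 with ACBI-1, against 2427 and 2412 with DMSO. The ACBI-1 replicates were further apart than the DMSO replicates and still lay below them. The log2 fold change was -0.47 ± 0.07 in DND-41 (adjusted p = 2.05e-05) and -0.42 ± 0.07 in MOLT-4 (adjusted p = 9.27e-05).

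The other CBX readers did not pass. CBX7 had 342 and 402 counts with ACBI-1 in DND-41, against 397 and 375 with DMSO, and in MOLT-4 562 and 611 with ACBI-1, against 506 and 497 with DMSO. CBX8 had 303 and 304 with ACBI-1 in DND-41, against 355 and 349 with DMSO, and in MOLT-4 480 and 470 with ACBI-1, against 439 and 465 with DMSO. For CBX7 the groups overlapped in DND-41 and for CBX8 they did not, and in MOLT-4 both genes were higher in each ACBI-1 library. CBX6 lay between 2594 and 3248 counts in all libraries.

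The PHC proteins polymerise PRC1, and PHC1 had 657 and 665 counts with ACBI-1 in DND-41, against 711 and 717 with DMSO, and in MOLT-4 439 and 466 with ACBI-1, against 494 and 566 with DMSO. PHC2 had 2279 and 2675 with ACBI-1 in DND-41, against 2809 and 2830 with DMSO, and in MOLT-4 3014 and 2912 with ACBI-1, against 3008 and 3015 with DMSO. SCMH1, which binds PHC proteins, had 840 and 856 counts with ACBI-1 in DND-41, against 877 and 863 with DMSO, and in MOLT-4 1107 and 1131 with ACBI-1, against 1248 and 1198 with DMSO. PHC1 and SCMH1 were lower in every ACBI-1 library than in the DMSO libraries of the same line and PHC2 in DND-41 only, but none passed (adjusted p between 0.0739 and 0.817). PHC3 lay between 1170 and 1687 counts with ACBI-1 and between 1161 and 1513 with DMSO over both lines. PHC1 shares 18.1% of its exon length with M6PR on the opposite strand, which had between 1057 and 1626 counts.

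The catalytic pair of PRC1 was not called in either line. RING1 had 1050 and 1107 counts with ACBI-1 in DND-41, against 1110 and 1172 with DMSO, and in MOLT-4 1356 and 1370 with ACBI-1, against 1378 and 1317 with DMSO. RNF2 had 477 and 401 with ACBI-1 in DND-41, against 486 and 490 with DMSO, and in MOLT-4 477 and 539 with ACBI-1, against 546 and 558 with DMSO. RING1 and RNF2 were lower in both ACBI-1 libraries of DND-41, and in MOLT-4 this held for RNF2 only. Their log2 fold changes lay between -0.16 and -0.01, and 0 of the pair had an unadjusted p under 5% in either line by edgeR or was called by DESeq2.

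Of the PRC2 core, EZH1 was the gene that moved, and in MOLT-4 only. EZH1, the catalytic subunit that predominates in resting cells, had 1663 and 1854 counts with ACBI-1 in DND-41, against 1695 and 1540 with DMSO, where the groups overlapped. In MOLT-4 it had 1552 and 1517 counts with ACBI-1, against 1271 and 1149 with DMSO, and rose (log2 fold change 0.31 ± 0.07, adjusted p = 0.00276). The change in DND-41 was 0.11 ± 0.07 (adjusted p = 0.41), and the difference between the lines did not pass (-0.23 ± 0.10, adjusted p = 0.58).

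EZH2, which predominates in dividing cells, had 3760 and 3710 counts with ACBI-1 in DND-41, against 3877 and 3880 with DMSO, and in MOLT-4 4557 and 4422 with ACBI-1, against 4948 and 4489 with DMSO. The scaffold SUZ12 had 2215 and 2126 with ACBI-1 in DND-41, against 2179 and 2042 with DMSO, and in MOLT-4 2780 and 2833 with ACBI-1, against 2854 and 3015 with DMSO. EED, which reads the methyl mark and activates the enzyme, had 421 and 477 counts with ACBI-1 in DND-41, against 406 and 456 with DMSO, and in MOLT-4 532 and 527 with ACBI-1, against 451 and 521 with DMSO. EZH2 was lower in both ACBI-1 libraries of DND-41, SUZ12 lower and EED higher in those of MOLT-4, and in the other line each gene's groups overlapped. The histone-binding subunits RBBP4 and RBBP7 also serve other chromatin complexes. RBBP4 had 4215 and 4201 counts with ACBI-1 in DND-41, against 4174 and 4145 with DMSO, and in MOLT-4 5327 and 5657 with ACBI-1, against 5729 and 5118 with DMSO. RBBP7 had 3121 and 3419 with ACBI-1 in DND-41, against 3289 and 3243 with DMSO, and in MOLT-4 2294 and 2193 with ACBI-1, against 2163 and 2058 with DMSO. In DND-41, 0 of the 6 core genes were called by edgeR, 0 had an unadjusted p under 5% and 0 were called by DESeq2. Only EZH1 was called in MOLT-4, by both tools. Over all genes, edgeR called 9.83% in DND-41 and 10.8% in MOLT-4. SUZ12 and RBBP4 have near-identical pseudogenes that may share their reads.

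Of the 6 accessory factors that direct PRC2, 2 rose and 2 fell in DND-41, where 9.83% of all genes were called, and in MOLT-4, where 10.8% were, only MTF2 was called. By DESeq2, 2 were called in DND-41 and 0 in MOLT-4 (2 at an unadjusted p under 5% by edgeR). MTF2, PHF1 and PHF19 are the 3 Polycomb-like proteins, which compete for the same place on SUZ12 and bring PRC2 to CpG-rich DNA. MTF2 had 2712 and 2466 counts with ACBI-1 in DND-41, against 2154 and 2129 with DMSO, so both ACBI-1 libraries were higher. In MOLT-4 it had 1155 and 1270 counts with ACBI-1, against 1338 and 1459 with DMSO, so both were lower. MTF2 rose by 0.27 ± 0.07 on the log2 scale in DND-41 (adjusted p = 0.0106) and fell by 0.23 ± 0.07 in MOLT-4 (adjusted p = 0.0362). The MOLT-4 call was kept in 4 of 11 alternatives and was lost by DESeq2 (adjusted p = 0.199), with library totals (0.0966), in the fit of all 8 libraries (0.0603) and with no filter (0.388).

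PHF19 had 2726 and 3008 counts with ACBI-1 in DND-41, against 3391 and 3383 with DMSO, and in MOLT-4 3087 and 2912 with ACBI-1, against 3230 and 3252 with DMSO. PHF1 had 1248 and 1274 with ACBI-1 in DND-41, against 1483 and 1467 with DMSO, and in MOLT-4 1127 and 1076 with ACBI-1, against 1080 and 1194 with DMSO. Both fell in DND-41, PHF19 by 0.25 ± 0.07 (adjusted p = 0.0124) and PHF1 by 0.24 ± 0.07 (adjusted p = 0.0295), and PHF1 lost its call by DESeq2, with library totals and after GC correction. LCOR, whose locus also encodes a PRC2 accessory protein, had 414 and 420 counts with ACBI-1 in DND-41, against 331 and 299 with DMSO, and in MOLT-4 349 and 355 with ACBI-1, against 295 and 371 with DMSO. It rose in DND-41 without overlap (0.40 ± 0.10, adjusted p = 0.00874), and in MOLT-4 the groups overlapped. JARID2, which links PRC2 to ubiquitinated H2A, had 1094 and 1290 counts with ACBI-1 in DND-41, against 1259 and 1123 with DMSO, and in MOLT-4 3631 and 3670 with ACBI-1, against 3520 and 3306 with DMSO. JARID2 was not called, nor was AEBP2, its partner in the same form of PRC2, which lay between 611 and 762 counts in all libraries.

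PR-DUB removes ubiquitin from H2A, with BAP1 as its enzyme and an ASXL protein as its activator. ASXL1 had 4738 and 5499 counts with ACBI-1 in DND-41, against 6042 and 6076 with DMSO, and in MOLT-4 4907 and 4804 with ACBI-1, against 5177 and 4886 with DMSO. It fell in DND-41 (log2 fold change -0.25 ± 0.07, adjusted p = 0.0171), with both ACBI-1 libraries below the DMSO libraries, and was not called in MOLT-4. BAP1 had 2856 and 2937 counts with ACBI-1 in DND-41, against 2944 and 3094 with DMSO, and in MOLT-4 3685 and 3384 with ACBI-1, against 3543 and 3405 with DMSO. BAP1 and ASXL2, which lay between 1470 and 1782 counts, were called in neither line.

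Summed, the 37 genes held 0.328% and 0.336% of the counts with ACBI-1 in DND-41, against 0.349% and 0.342% with DMSO, and in MOLT-4 0.318% and 0.313% with ACBI-1, against 0.335% and 0.331% with DMSO. The ACBI-1 libraries were lower in both lines. Without BCOR the shares were 0.316% and 0.323% with ACBI-1 in DND-41, against 0.330% and 0.324% with DMSO, and in MOLT-4 0.310% and 0.305% with ACBI-1, against 0.319% and 0.315% with DMSO. In bulk RNA, fewer cells that express a gene and less RNA per cell cannot be told apart.

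Of 11 alternatives tried in each line, BCOR, BCORL1 and CBX2 kept their calls in 9 each in DND-41, and in 9, 8 and 8 in MOLT-4. The other called members kept theirs in between 3 (PHF1) and 6 in DND-41, and in between 4 (MTF2) and 7 (EZH1) in MOLT-4, and DESeq2 did not call LCOR (adjusted p = 0.117) or RYBP (0.157) in DND-41, nor PCGF1 (0.107) in MOLT-4. In DND-41, 0 members were called without ACBI-1 replicate 1 (14 at an unadjusted p under 5%), 3 without ACBI-1 replicate 2, 4 without DMSO replicate 1 and 3 without DMSO replicate 2, in fits with 1 residual degree of freedom; BCOR, BCORL1 and CBX2 were called in the last 3 of these. In MOLT-4, 0 members were called without ACBI-1 replicate 1 (8 at an unadjusted p under 5%) or ACBI-1 replicate 2 (9), when no gene at all was called, 10 without DMSO replicate 1 and 5 without DMSO replicate 2. In the authors' deposited tables, 6 members had an adjusted p under 5% in DND-41, with MTF2 higher and PHF19, CBX2, BCOR, BCORL1 and ASXL1 lower, and 4 in MOLT-4, with EZH1 higher and CBX2, BCOR and BCORL1 lower with ACBI-1.

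The response differed between the lines for 2 members, MTF2 and BCOR, by the edgeR test of line by treatment over all 8 libraries. These are 5.41% of the 37, against 0.641% of 15604 genes. The rule for the list names both genes, and the list was chosen with earlier results known, so these shares are descriptions. Both differences were positive, DND-41 minus MOLT-4, as were those of 0.442% of all genes. For MTF2 the response in DND-41 exceeded that in MOLT-4 by 0.48 ± 0.10 on the log2 scale (adjusted p = 0.0206), since it was higher with ACBI-1 in DND-41 and lower in MOLT-4. For BCOR the difference was 0.45 ± 0.09 (adjusted p = 0.0101), a smaller fall in DND-41 than in MOLT-4. For BCORL1 it was -0.11 ± 0.12, for CBX2 -0.07 ± 0.10, for KDM2B -0.06 ± 0.09 and for PCGF2 0.14 ± 0.14, and none of these passed.

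Both calls depended on which libraries entered, and neither passed with no filter on low counts. The MTF2 call was lost without DND-41 ACBI-1 replicate 1 (adjusted p = 0.083), DND-41 DMSO replicate 1 (0.065), DND-41 DMSO replicate 2 (0.102), MOLT-4 ACBI-1 replicate 1 (0.166) or MOLT-4 DMSO replicate 2 (0.121), with differences between 0.39 and 0.58 over all alternatives. The BCOR call was lost without DND-41 DMSO replicate 2 (adjusted p = 0.102) or MOLT-4 ACBI-1 replicate 1 (0.0606), with differences between 0.41 and 0.49.

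The lines expressed their Polycomb genes in different proportions. Under DMSO, 30 of 37 members differed between the lines, which is 81.1% of them, against 64.4% of the 15604 genes tested, again without matching for expression level. Of these, 10 were higher in DND-41, against 31.6% of all genes, and 20 were lower, against 32.8%. The median log2 difference of the members, DND-41 minus MOLT-4, was -0.22, against -0.006 over all genes. The largest differences were in the PCGF family and in JARID2.

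PCGF2, with 1268 and 1272 counts in DND-41 DMSO libraries, against 226 and 201 in MOLT-4, was higher in DND-41 by 2.51 ± 0.09 on the log2 scale (adjusted p = 1.88e-19). PCGF5 was higher by 2.16 ± 0.08 (adjusted p = 8.43e-20). The other 4 PCGF genes were lower in DND-41, namely BMI1 (-0.54 ± 0.10), PCGF3 (-0.41 ± 0.06), PCGF6 (-0.38 ± 0.13) and PCGF1 (-0.27 ± 0.10), with adjusted p between 2.65e-06 and 0.0239. Summed over the family on a scale of CPM (library-scaled counts) per kilobase of exon, the PCGF genes reached 91.0 and 89.3 in the DND-41 DMSO libraries, against 52.1 and 53.2 in MOLT-4. PCGF5 made up 47.7% and 46.4% of that sum in DND-41, against 17.5% and 18.6% in MOLT-4. PCGF2 made up 19.5% and 20.1% in DND-41, against 6.36% and 5.56% in MOLT-4, where PCGF3 took the largest share, 31.97% and 30.6%.

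In the PRC2 core, EZH2 (-0.34 ± 0.06), SUZ12 (-0.54 ± 0.07), EED (-0.23 ± 0.10) and RBBP4 (-0.44 ± 0.07) were lower in DND-41, and EZH1 (0.36 ± 0.07) and RBBP7 (0.57 ± 0.06) were higher, with adjusted p between 1.09e-08 and 0.0362. The balance of the enzymes thus differed: per kilobase, EZH1 was 22.1% and 20.4% of the EZH transcripts in DND-41 DMSO libraries, against 14.3% and 14.2% in MOLT-4. With ACBI-1 the EZH1 share in MOLT-4 was 18.1% and 18.2%, against those DMSO values, and in DND-41 22.3% and 24.4%. JARID2 was lower in DND-41 by a fold of 2.99 (log2 difference -1.58 ± 0.07, adjusted p = 7.23e-17), with at most 1290 counts in the DND-41 libraries, against at least 3306 in MOLT-4. It made up 12.99% and 11.9% of the accessory transcripts per kilobase in DND-41 DMSO libraries, against 34.2% and 32.0% in MOLT-4. MTF2 (0.55 ± 0.07) and PHF1 (0.31 ± 0.07) were higher in DND-41, and PHF19, AEBP2 and LCOR were not called.

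**Figure D3:**
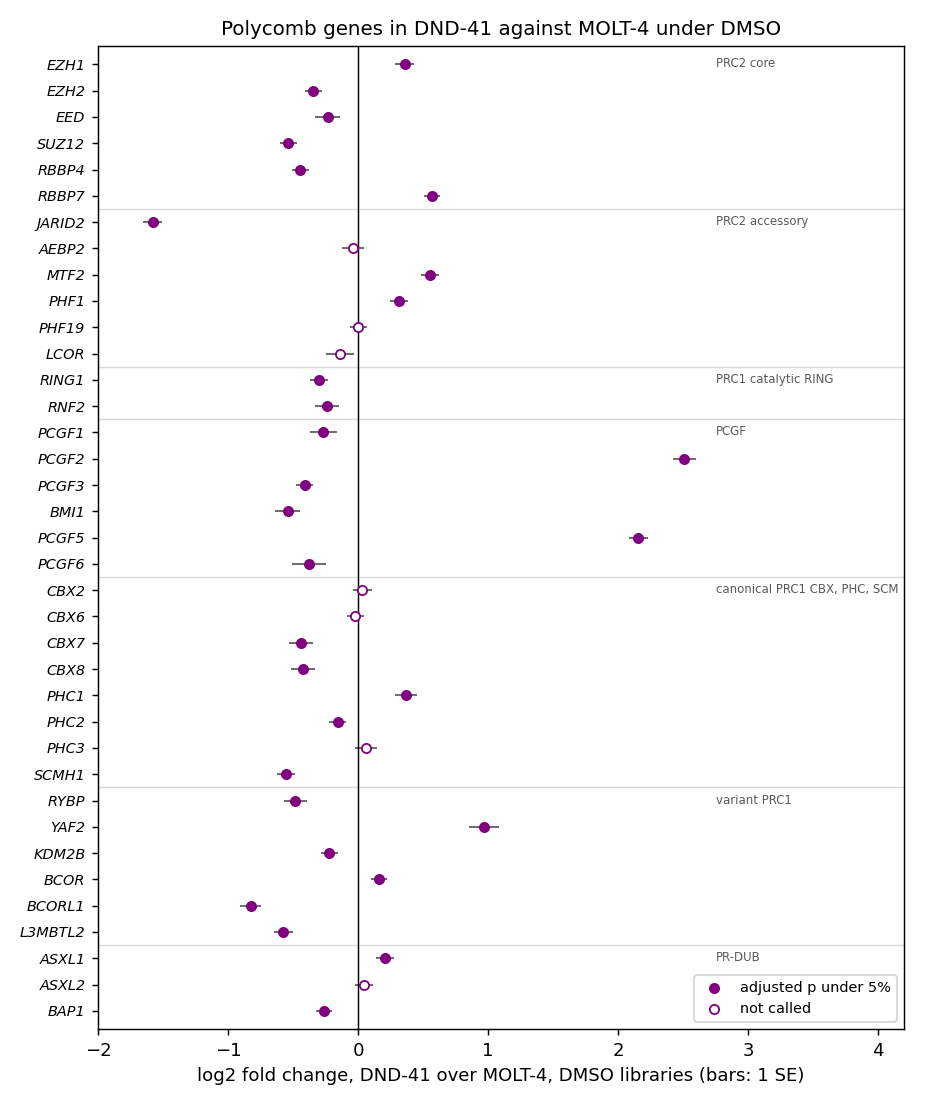
Log2 difference between DND-41 and MOLT-4 under DMSO for each of the 37 genes, grouped by role; points are edgeR estimates from all 8 libraries, bars 1 SE, and filled points have an adjusted p under 5%. PCGF2 and PCGF5 lie furthest to the right, at 2.51 and 2.16, and JARID2 furthest to the left, at -1.58.

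In PRC1, the ligases RING1 (-0.30 ± 0.07) and RNF2 (-0.24 ± 0.10) were lower in DND-41. So were the readers CBX7 (-0.44 ± 0.09) and CBX8 (-0.42 ± 0.09), PHC2 (-0.16 ± 0.07) and SCMH1 (-0.55 ± 0.07), while PHC1 (0.37 ± 0.09) was higher and CBX2, CBX6 and PHC3 were not called. Among variant PRC1 genes, BCORL1 (-0.83 ± 0.08), L3MBTL2 (-0.58 ± 0.07), RYBP (-0.48 ± 0.09) and KDM2B (-0.22 ± 0.07) were lower and YAF2 (0.97 ± 0.11) and BCOR (0.16 ± 0.06) higher. The paralogues therefore stood in different proportions. YAF2 was 30.8% and 28.8% of the RYBP and YAF2 transcripts per kilobase in DND-41 DMSO libraries, against 14.1% and 12.8% in MOLT-4, and BCORL1 was 13.4% and 14.2% of the BCOR and BCORL1 transcripts, against 23.7% and 24.5%. In PR-DUB, ASXL1 (0.21 ± 0.07) was higher in DND-41 and BAP1 (-0.26 ± 0.06) lower, and ASXL2 was not called. The adjusted p of the genes called in these groups lay between 5.39e-10 and 0.0434.

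Calls of 8 of the 30 members were lost in at least 1 alternative, namely EED, RNF2, PCGF1, PCGF6, PHC2, KDM2B, BCOR and ASXL1. Leaving out DND-41 DMSO replicate 2, which held MOLT-4 transcripts, left 24 members called, and leaving out DND-41 DMSO replicate 1 also left 24.

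**Figure D4:**
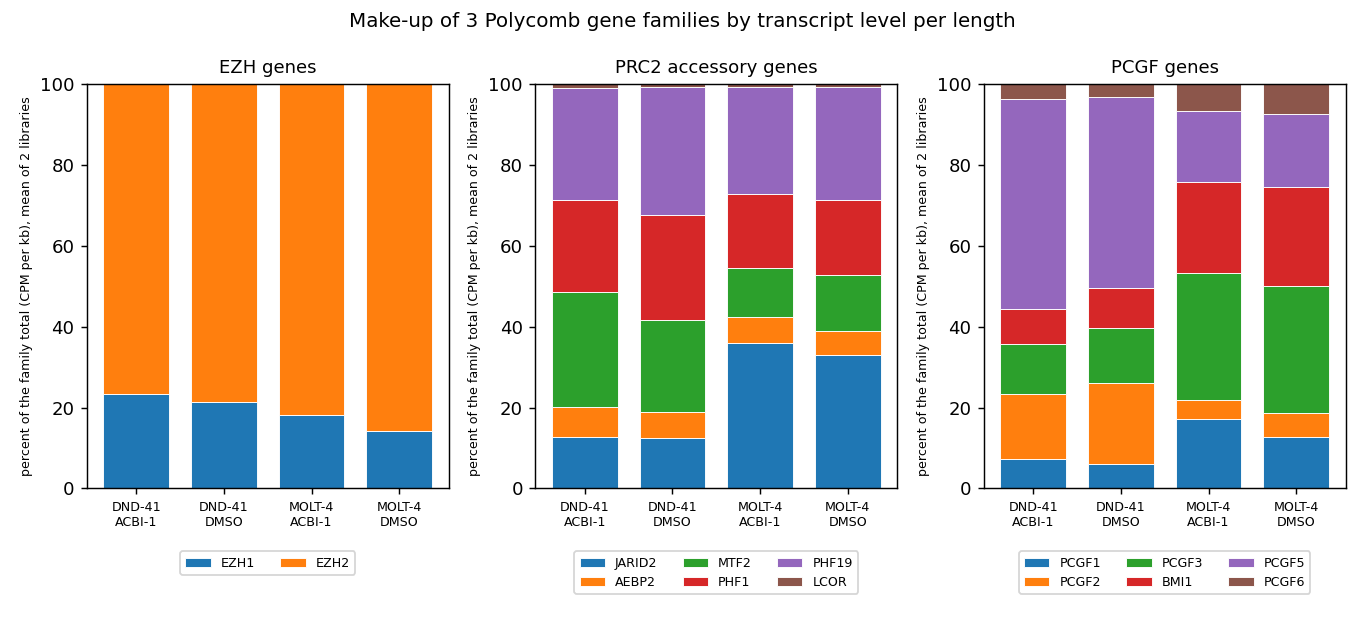
Make-up of the EZH, PRC2 accessory and PCGF families in each group, as the percent of the family's summed CPM per kilobase of exon, mean of 2 libraries. PCGF5 fills 47.0% of the DND-41 DMSO bar, against 18.1% of the MOLT-4 DMSO bar, and JARID2 fills 12.5% of the accessory bar in DND-41 with DMSO, against 33.1% in MOLT-4.

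By level per kilobase under DMSO, PCGF5 (42.4 CPM per kilobase) and EZH2 (42.4) headed the members in DND-41, followed by RING1 (31.0). In MOLT-4 the order was EZH2 (53.8), RING1 (38.2) and BAP1 (35.4). LCOR was the lowest member in both lines, at 0.598 CPM per kilobase in DND-41 and 0.66 in MOLT-4. This rank rests on its exon length of 26.02 kb, the longest of the members. In raw counts LCOR was above PCGF6 in every library. Every member had at least 147 counts in every library, and none was near a count of 0.

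A wider list of 29 Polycomb-linked genes, of which 28 were found by symbol, was called at about the rate of all genes. In DND-41, 1 of 24 tested rose, against 3.78% of all genes, and 2 fell, against 6.05%. In MOLT-4, 2 of 26 rose, against 3.9%, and 1 fell, against 6.94%. Together these were 12.5% in DND-41, against 9.83% of all genes, and 11.5% in MOLT-4, against 10.8%. AUTS2, a subunit of the PCGF3 and PCGF5 complexes, had 3958 and 4324 counts with ACBI-1 in DND-41, against 5186 and 4985 with DMSO, and in MOLT-4 385 and 405 with ACBI-1, against 655 and 597 with DMSO. It fell in both lines, by 0.31 ± 0.07 in DND-41 (adjusted p = 0.00223) and by 0.69 ± 0.09 in MOLT-4 (adjusted p = 4.12e-06). KDM1B, a histone demethylase, had 505 and 529 counts with ACBI-1 in DND-41, against 387 and 359 with DMSO, and in MOLT-4 698 and 806 with ACBI-1, against 525 and 587 with DMSO. It rose in both lines, by 0.46 ± 0.09 in DND-41 (adjusted p = 0.001) and by 0.41 ± 0.09 in MOLT-4 (adjusted p = 0.00251). CSNK2A2, a casein kinase subunit of the same complexes, fell in DND-41 (-0.21 ± 0.07, adjusted p = 0.0461), and WDR5, a subunit shared with histone methyltransferases, rose in MOLT-4 (0.22 ± 0.07, adjusted p = 0.0283). The edgeR test of line by treatment called 0 of 26 genes of this wider list (1 at an unadjusted p under 5%).

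Under DMSO, 8 of 26 of these genes were higher in DND-41, against 31.6% of all genes, and 10 lower, against 32.8%, which together is 69.2%, near the 64.4% of all genes. AUTS2 (2.96 ± 0.07), SFMBT2 (2.40 ± 0.07) and SFMBT1 (0.98 ± 0.08) were higher in DND-41, and MGA, the scaffold of the PCGF6 complex, was lower (-1.001 ± 0.065). SCML2 had 0 and 3 counts in the DND-41 DMSO libraries, against 600 and 650 in MOLT-4, and L3MBTL3 had 0 counts in every DND-41 library, against between 190 and 276 in MOLT-4. SCML2 and L3MBTL3 passed the filter on low counts only through MOLT-4, so the counts of this list are descriptions.

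Of 13 enzymes that remove or oppose Polycomb marks, 0 were called in DND-41 by edgeR or by DESeq2 (2 at an unadjusted p under 5% by edgeR) and 1 in MOLT-4. Over all genes, edgeR called 9.83% in DND-41 and 10.8% in MOLT-4, so such counts of 13 do not set these enzymes apart. KDM6B, which demethylates the PRC2 mark, had 1457 and 1295 counts with ACBI-1 in MOLT-4, against 1761 and 1992 with DMSO, and fell by 0.48 ± 0.07 (adjusted p = 3.84e-05). In DND-41 it had 739 and 744 counts with ACBI-1, against 816 and 724 with DMSO, where the groups overlapped. The difference of the KDM6B responses between the lines did not pass the edgeR test of line by treatment (0.39 ± 0.11, adjusted p = 0.145). That test called 0 of the 13 enzymes (1 at an unadjusted p under 5%). Under DMSO, 1 of the 13 was higher in DND-41 and 6 were lower, together 53.8%, against 64.4% of all genes. KDM6B was lower in DND-41 (log2 difference -1.35 ± 0.08), as were KMT2C (-0.74 ± 0.06), KMT2A (-0.37 ± 0.06), USP16 (-0.33 ± 0.07) and NSD2 (-0.24 ± 0.07), while NSD1 (0.27 ± 0.06) was higher.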

How the data were processed

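For each line the authors deposited a table of unnormalized read counts and a table of ACBI-1 against DMSO that holds log2 fold changes and p-values, per the file headers. The submitters' processing notes name the build hg19, with DESeq2 1.12.4, STAR 2.5.2a and featureCounts as tools. Annotation and strand setting were not given in the sources used here, although the libraries were strand-specific per the labels' protocols. The sign of the deposited MOLT-4 log2 fold changes ran opposite to ACBI-1 minus DMSO and was turned round.

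Counts were tested with edgeR 4.0.16 (R 4.3.3) by the quasi-likelihood F-test after TMM scaling and filterByExpr, on the 4 libraries of each line, and on all 8 libraries for the interaction and for the lines under DMSO. P-values were adjusted by Benjamini-Hochberg over all genes, at 5%. No covariate was used. Separate cultures are not stated for the replicates, and the p-values therefore cover the spread among libraries alone, which may be technical. An exact permutation test of 2 against 2 cannot go below 0.333, so none was used. No spike-in is named, so values are relative to each library's total.

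The members and the lists were chosen with earlier results of these data known. Named are all members called in at least 1 comparison, the core subunits, and of each other list up to 6 genes called with the smallest p. Of the members, 5 had several identifiers, and the 10 further identifiers had 0 reads. Exon lengths and GC content came from GENCODE 29 on GRCh38, by identifier for 36 members and by symbol for PCGF2, which has no GC value. Promoters came from RefSeq.

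The fits were tested on simulated data, where changes of 1.5-fold were recovered for 93% of 100 changed genes in DND-41 (14762 genes), 91% in MOLT-4 (14672 genes), 76% for the interaction (15082 genes) and 95% between the lines (15097 genes). Only genes with more than 100 expected counts were changed. Every simulated library took the same spread, set by expression level over all 8 libraries. The wider gap between the DND-41 ACBI-1 replicates was not simulated, so recovery in the data may be lower. Alternatives were DESeq2 1.42.0, its size factors in edgeR, library totals, no filter, a replicate block, all 8 libraries in one fit, other choices of libraries for the lines, each library left out, and the GC correction, which took a spline with 6 degrees of freedom out of each library.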

Additional observations from a re-analysis of the deposited data

Results flagged for a closer look

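The test of the difference itself, the interaction of treatment and line in edgeR, passed for 2 members. For MTF2 the log2 difference of the responses, DND-41 minus MOLT-4, was 0.48 (0.27 for DND-41, -0.23 for MOLT-4), and both ACBI-1 libraries lay above the DMSO libraries in DND-41 and below them in MOLT-4. For BCOR it was 0.45 (-0.55 for DND-41, -1.03 for MOLT-4), and all ACBI-1 libraries lay below the DMSO libraries of their line. After GC correction the differences were 0.45 for MTF2 (adjusted p = 0.00545) and 0.46 for BCOR (adjusted p = 0.00228). With 2 libraries a group, no group was large enough to be searched for outlying libraries.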

How the results depend on the processing

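Calls of members were kept in 69 of 121 refits in DND-41, 52 of 88 in MOLT-4, 19 of 28 for the interaction and 442 of 480 between the lines, and 0 changed sign. Genes and members called, against 1378 and 11 in DND-41, 1568 and 8 in MOLT-4, and 100 and 2 for the interaction, moved most in the following settings. DESeq2 called 617 genes and 7 members in DND-41, and 696 and 4 in MOLT-4. With no filter, edgeR called 2 genes and 0 members in DND-41 (15 at an unadjusted p under 5%), 39 and 1 in MOLT-4, and 13 and 0 for the interaction (6 at an unadjusted p under 5%). Library totals left 5 members in MOLT-4. Leaving out each library gave between 3 and 632 genes and between 0 and 4 members in DND-41, between 0 and 1430 genes and between 0 and 10 members in MOLT-4, between 49 and 138 genes and between 0 and 3 members for the interaction, and between 9154 and 10442 genes and between 24 and 30 members between the lines. Without MOLT-4 ACBI-1 replicate 1 or 2, 1874 and 2273 genes had an unadjusted p under 5%. For the interaction, 0 members were called without DND-41 DMSO replicate 2 (5 at an unadjusted p under 5%) or MOLT-4 ACBI-1 replicate 1 (6). The cause of these shifts was not tested, and a fit without a library also has fewer libraries. The lone library of a group was assumed to vary like the others.

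The deviations of same-numbered replicates had a correlation of 0.042 in DND-41 and 0.043 in MOLT-4 over 15604 genes. This value mixes count noise with any shared handling, so it cannot decide whether same-numbered libraries were paired. The replicate block gave 2230 genes and 16 members in DND-41, 2228 and 11 in MOLT-4, 302 and 4 for the interaction, and 10534 and 30 between the lines. In every comparison this was more genes than in the main fit. Correcting for GC content, added once the data had been seen, gave 1692 genes and 13 members in DND-41, and 1909 and 9 in MOLT-4. With 2 libraries a group, changes under 1.5-fold may go uncalled.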

Other observations

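Genes that textbooks give as Polycomb targets were low in both lines for the most part. Of 35 listed, 18 had at most 10 counts in every library. In MOLT-4, 6 of the 12 that passed the filter on low counts fell with ACBI-1 and 0 rose (by edgeR; DESeq2 called 4), against 10.8% of all genes called. A gene can pass this filter through the group where it is higher, so these counts are descriptions. PAX6, an eye and brain homeobox regulator, had 560 and 712 counts with ACBI-1 in MOLT-4, against 1084 and 1146 with DMSO (-0.84 ± 0.09, adjusted p = 2.29e-07). WT1, a zinc-finger factor of kidney development, had 569 and 541 counts with ACBI-1, against 1032 and 922 with DMSO (-0.84 ± 0.08, adjusted p = 3.54e-08). MSX1, a homeobox repressor, had 88 and 65 counts with ACBI-1, against 187 and 206 with DMSO (-1.39 ± 0.16, adjusted p = 6.27e-07). For each of them the ACBI-1 libraries lay below the DMSO libraries. FOXA2, a forkhead factor of endoderm, had 12 and 9 counts with ACBI-1, against 55 and 77 with DMSO (-2.67 ± 0.31), and EOMES and HOXD13 also fell, by 0.53 ± 0.14 and by 0.40 ± 0.10.

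In DND-41, 2 of 9 tested fell and 0 rose, against 9.83% of all genes called. WT1 had 331 and 393 counts with ACBI-1, against 512 and 540 with DMSO (-0.55 ± 0.10, adjusted p = 0.000192). EOMES, a T-box factor, had 117 and 109 counts with ACBI-1, against 184 and 165 with DMSO (-0.64 ± 0.15, adjusted p = 0.00407). The interaction called 0 of 16 targets (3 at an unadjusted p under 5%; 0 by DESeq2), so no difference between the lines was shown.

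Some targets had far fewer DMSO counts in either DND-41 or MOLT-4, and their values are given as descriptions. CDKN2A, the cell cycle inhibitor locus, had 10853 and 10765 counts in DND-41 DMSO libraries, against 9 and 42 in MOLT-4. The homeobox gene HOXA7 had 244 and 235 counts in DND-41, against 2 and 1 in MOLT-4, and HOXA5 96 and 86 in DND-41, against 4 and 1 in MOLT-4. These 3 genes were higher in DND-41, without overlap. PAX6 had 51 and 48 counts in DND-41, against 1084 and 1146 in MOLT-4. HOXB4 had 0 and 7 in DND-41, against 533 and 521 in MOLT-4, and MSX1 5 and 1 in DND-41, against 187 and 206 in MOLT-4. These were lower in DND-41, again without overlap. DND-41 DMSO replicate 2, the source of the 7 HOXB4 counts, is the library that held MOLT-4 transcripts. DND-41 transcripts were not searched for in the MOLT-4 libraries, and why these counts differed between the lines was not tested.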
